A study of Mus musculus with 75 samples.

Results

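The comparison concerns 27 single cells from adult mouse cochleae that were turned from supporting cells (SCs) towards outer hair cells (OHCs): 11 OHC-like cells and 16 nascent hair cells (nascent HCs), out of 75 cells in all. Each cell was sequenced on its own as a full-length cDNA library, and its type was taken from the group given in its title. All 27 cells came from P60 mice of 1 genotype, which carried the driver Fgfr3-iCreER+, the inducible transgene CAG-LSL-Atoh1+, the inducible knock-in Rosa26 CAG-LSL-Ikzf2/+ and the toxin receptor knock-in Slc26a5 DTR/+. Tamoxifen at P30 and P31 switched on Atoh1 and Ikzf2-Tdtomato in cells that express Fgfr3-iCreER, mainly pillar cells and Deiters' cells. Diphtheria toxin (20 ng/g) at P36 killed most of the endogenous OHCs, which express the toxin receptor from Slc26a5. Both types therefore share the same alleles, the same 2 transgenes and the same treatment, and they were picked by hand under fluorescence as Tdtomato+ cells. The authors assigned the types after sequencing, OHC-like cells as Myo7a+ and Prestin+ and nascent HCs as Myo7a+ and Prestin-, so Slc26a5 and Myo7a are given only as values. The other cells of the series, used here as reference levels, were 15 Tdtomato+ cells that the authors classed as negative for Myo7a (failing SCs), 17 wild-type OHCs at P30 (WT_P30 OHCs) and 16 wild-type SCs at P60 (WT_P60 SCs). The WT_P30 OHCs came from mice with the knock-in Slc26a5 CreER/+ and the Tdtomato reporter Ai9/+, given tamoxifen before P30. The WT_P60 SCs came from mice with Fgfr3-iCreER+ and Ai9/+, given tamoxifen at P30 and P31. Wild-type is the authors' label, and both groups carried a Cre driver.

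Hair cells of the cochlea turn sound into electrical signals: a bundle of actin-filled stereocilia on the cell's top is deflected, and channels at the tips of the stereocilia open. OHCs differ from inner hair cells (IHCs) in that they shorten and lengthen with the voltage across their membrane, through the motor protein Prestin, encoded by Slc26a5, and so amplify the sound. SCs sit below and between the hair cells. Atoh1 is the transcription factor that starts hair cell formation in the embryo, and Ikzf2 (Helios) is a transcription factor of maturing OHCs. The comparison asks what sets the cells that reached Prestin apart from those that did not, beyond Prestin itself.

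Total counts on genes ran from 6382171 to 20254735 in the OHC-like cells and from 7443598 to 22934062 in the nascent HCs. The library codes fall into 5 runs of consecutive codes, called library series A to E here, with 1 and 1 cells of the 2 types in series A, 5 and 6 in B, 0 and 1 in C, 3 and 4 in D, and 2 and 4 in E. The labels name no animal for any cell, so cells of 1 series may share an animal, and p-values over series measure only the spread between these sums. OHC-like cell 4 of series B stood apart: 3348 genes were detected in it at 1 CPM (counts per 1000000 counts on genes) or more, 36.0% of its counts fell on its 10 most abundant genes, and 23.8% fell on mitochondrial genes. The mitochondrial share was 2.24% to 23.8% in the OHC-like cells and 1.41% to 8.44% in the nascent HCs. Within series, the mean number of genes detected per cell differed between the types by 1000 (A), -690 (B), -229 (D) and 817 (E), OHC-like minus nascent, with a mean of 224 that was -34.1 without series A (exact permutation test over sign flips of the 4 differences, 2-sided p = 0.625, where 0.125 is the smallest p that 4 series allow).

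Slc26a5 itself, which chose the cells, was at 62.1 ± 51.3 CPM (SD) in the OHC-like cells, with the lowest cell at 16.0, the median at 56.2 and the highest at 185. In the nascent HCs it was at or above 1 CPM in 3 of 16 cells and reached 16.4 CPM in nascent HC 2, which is above the lowest OHC-like cell. WT_P30 OHCs held it at 1832 ± 479 CPM, with the lowest cell at 1015, and every OHC-like cell was below every WT_P30 OHC. Myo7a, the motor protein of the stereocilia and of the upper cell body that marked both types, was at 795 ± 774 CPM in the OHC-like cells and 481 ± 269 CPM in the nascent HCs, present in all 27 cells. The medians were closer, at 612 and 526 CPM. OHC-like cell 4 held 3013 CPM and the next OHC-like cell 948 CPM. The log2 difference was 0.18 with OHC-like cell 4 and 0.02 without it. In the failing SCs Myo7a had a median of 0 and a highest cell of 21.7 CPM.

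The transgenes were on in every cell of both types. Atoh1 was at 4894 ± 3193 CPM in the OHC-like cells (lowest 769, median 4045, highest 10260) and at 4448 ± 2336 CPM in the nascent HCs (1392, 4524 and 10412). Ikzf2 was at 348 ± 213 CPM in the OHC-like cells (113, 400 and 831) and at 299 ± 146 CPM in the nascent HCs (44.8, 276 and 651). The ranges of both genes overlapped almost fully, and the fitted log2 differences were -0.16 (SE 0.27) for Atoh1 and 0.06 (SE 0.44) for Ikzf2. A read of either gene can come from the transgene or from the mouse's own copy. WT_P30 OHCs held Atoh1 at 1.52 CPM and Ikzf2 at 189 CPM.

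Across all genes, the 2 types could not be told apart by the main test. Counts were summed per library series and type, giving 4 OHC-like and 5 nascent sums, and fitted with edgeR's quasi-likelihood F-test with the series as a term. With Slc26a5 set aside, 0 of 11565 genes passed an adjusted p of 0.05 in either direction (percent called 0.0 higher and 0.0 lower), and every adjusted p was 1. At an unadjusted p of 0.05, 227 genes passed (1.96%), 99 higher in OHC-like cells (0.856%) and 128 lower (1.11%). DESeq2 on the same sums called 56 genes higher (0.484%) and 139 lower (1.2%), with 1085 genes under an unadjusted p of 0.05, and limma on mean log2 values called 0, with 489 genes under 0.05. With single cells as the units, edgeR over all 5 groups called 80 genes higher (0.699%) and 24 lower (0.21%), 86 of the 104 being detected in 3 or fewer of the 27 cells, and DESeq2 called 2 higher (0.0229%) and 1 lower (0.0114%). The median standard error of a log2 difference was 1.37. Of the 19151 genes with 1 CPM in any of the 27 cells, 0 separated the types, that is, had every OHC-like cell above or every OHC-like cell below every nascent HC (0.0% in each direction). Every gene below is therefore given by its levels, with the unadjusted p of the edgeR fit as a description. Many of these genes were named for a small p or a large difference in the same cells. A shared direction across series is favoured by that choice and is no separate support. Of the list members named below, DESeq2 on the sums called Aqp11 (adjusted p = 0.000562), Calb1 (0.00878) and Ocm (0.0245) higher and Hey1 (6.4e-06), Atp1b1 (0.0108), Slc1a3 (0.0140), Cryab (4.5e-08) and Ccdc60 (5.95e-06) lower.

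The 18 genes of the mature OHC list are those that OHCs gain or raise as they mature. The list leaned towards OHC-like cells: 16 of its 18 members were detected in a larger share of OHC-like cells and 2 in a smaller share, against 46.4% and 48.0% of all 19151 genes. Of the 14 members that entered the fit, 14 had a log2 difference above 0 with a median of 1.18, beside 49.9% above 0 and a median of -0.00 over all genes tested, and 0 passed the test. Without series E, 12 of 14 were above 0 and the median was 0.53.

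Ocm, the calcium buffer oncomodulin, was detected in 7 of 11 OHC-like cells and 6 of 16 nascent HCs. It was at 1105 ± 1905 CPM in the OHC-like cells (lowest 0, median 261, highest 5549) and at 418 ± 1642 CPM in the nascent HCs (0, 0.218 and 6576). The nascent mean rested on nascent HC 5 alone, which held more Ocm than any OHC-like cell, while 15 of 16 nascent HCs were below the OHC-like median. The log2 difference was 4.44 (SE 1.74, edgeR p = 0.0501). DESeq2 on single cells called Ocm higher at an adjusted p of 0.000875. That fit counts cells as replicates, though the labels name no animal for any cell, so its p is a description only. In WT_P30 OHCs the mean was 30142 CPM and the lowest cell was at 11585, above every cell of both types.

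Aqp11 (chr7:97724006-97738289, minus strand, GRCm38), a channel of the aquaporin family, was at 350 ± 280 CPM in the OHC-like cells (lowest 0, median 301, highest 994) and at 90.9 ± 137 CPM in the nascent HCs (0, 42.6 and 553). The groups overlapped, but 15 of 16 nascent HCs lay below the OHC-like median, and the OHC-like mean log2 level was higher in 4 of 4 series. Its log2 difference was 2.31 (SE 0.43, edgeR p = 0.0017), the smallest p on the list. The wild-type means were 2153 CPM in OHCs and 463 CPM in SCs, so the nascent mean was below that of the WT_P60 SCs as well. The cell at 0 was OHC-like cell 4, and the difference without that cell was 2.35.

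Other mature OHC genes showed how far both types were from wild-type levels. Kcna10, a potassium channel gene, was detected in 3 of 11 OHC-like cells and 3 of 16 nascent HCs, at means of 16.1 and 9.85 CPM against 2348 in WT_P30 OHCs. Lmo7, a protein of the plate in which the stereocilia are rooted, was detected in 8 of 11 and 7 of 16 cells, at 60.8 and 42.4 CPM against 1731. Strip2, a cytoskeletal regulator, was detected in 7 of 11 and 7 of 16 cells, at 48.8 and 15.0 CPM against 1357. Sri, which encodes the calcium-binding protein sorcin, was at 110 and 101 CPM against 2550, and its difference changed direction between alternatives (log2 from -0.53 to 0.43).

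Chrna9 and Chrna10 encode the subunits of the acetylcholine receptor through which brainstem fibres damp OHCs. Chrna9 was close to the wild-type mean in both types, at 701 ± 526 CPM in the OHC-like cells and 731 ± 657 CPM in the nascent HCs beside 652 ± 321 CPM in WT_P30 OHCs. Chrna10 was detected in 1 cell of each type, OHC-like cell 11 at 256 CPM and nascent HC 2 at 132 CPM, while the lowest WT_P30 OHC was at 125 CPM. Both types thus held 1 subunit of the pair in most cells and the other in almost none.

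**Figure D1:**
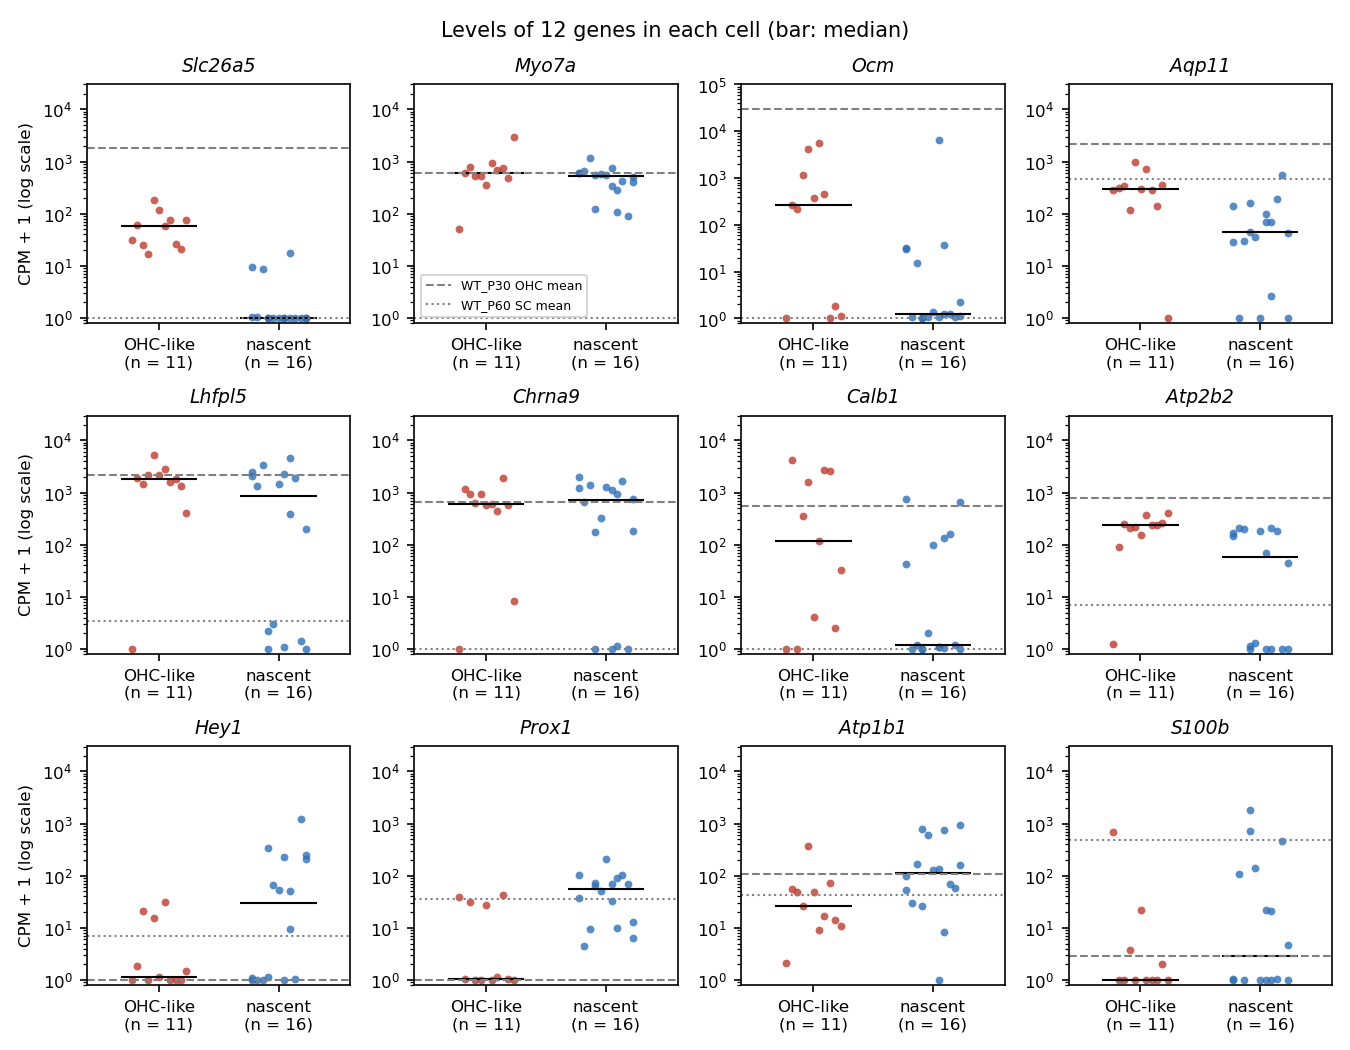
Level of 12 genes in each of the 11 OHC-like cells (red) and 16 nascent HCs (blue), as CPM + 1 on a log axis; the black bar is the median, the dashed line the mean of the WT_P30 OHCs and the dotted line that of the WT_P60 SCs. The cells of the 2 types overlap in every panel, including Slc26a5, which chose them, and for Lhfpl5, Calb1 and Atp2b2 the nascent HCs divide into cells with the gene and cells at or near 0.

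Mechanotransduction genes build the channel at the stereocilia tips and the tip link that pulls it open. Of 18 genes listed, 13 were detected in a larger share of OHC-like cells and 3 in a smaller share. Of the 12 members that entered the fit, 8 were above 0 with a median log2 difference of 0.41, and 0 passed the test. That median was 0.07 without series E, with 7 of 12 above 0, 0.26 without series A, 0.77 without series B and 0.99 without series D.

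Lhfpl5, a subunit of the channel complex, was at 1895 ± 1362 CPM in the OHC-like cells (lowest 0, median 1829, highest 5242) and at 1249 ± 1429 CPM in the nascent HCs (0, 854 and 4593). It was missing from OHC-like cell 1 and below 1 CPM in nascent HCs 3, 7, 15 and 16, and 9 of 11 OHC-like cells and 8 of 16 nascent HCs were at or above the lowest WT_P30 OHC, at 774 CPM. The log2 difference was 0.82 (SE 0.44, edgeR p = 0.119). Cib2, another protein of the complex, was in all 27 cells at 3594 ± 1436 and 2279 ± 857 CPM, with a log2 difference of 0.46 (SE 0.46).

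Tmc1, the pore-forming subunit of mature hair cells, was all but absent. It was detected in 2 of 11 OHC-like cells (18.2%, exact binomial 95% interval 2.28 to 51.8%), at 447 CPM in OHC-like cell 11 and 3.69 CPM in OHC-like cell 2. It had no count in any of the 16 nascent HCs, which allows a share of up to 18.8% of cells, and the lowest WT_P30 OHC held 747 CPM. These intervals and limits, here and below, take each cell as an independent draw. Cells may share an animal, so they are a description only. Reads without molecular identifiers are also not independent molecules. Tomt, needed to bring the channel to the bundle, was detected in 6 of 11 and 3 of 16 cells, at means of 15.1 and 3.66 CPM. Tmie, a further subunit, was detected in 10 of 11 and 14 of 16 cells at 87.3 and 66.2 CPM.

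Of the tip link proteins, Pcdh15, the lower part of the link, was at 83.0 ± 64.8 CPM in the OHC-like cells (lowest 0.123, median 85.9, highest 234) and at 273 ± 302 CPM in the nascent HCs (0.109, 154 and 1056). The highest OHC-like cell lay below 5 of 16 nascent HCs, and the log2 difference was -2.02 (SE 0.76, edgeR p = 0.0368). Cdh23, the upper part of the link, was at 85.0 ± 96.5 and 110 ± 148 CPM with a difference of -0.31 (SE 0.92) and opposite directions between alternatives. WT_P30 OHCs held Pcdh15 at 89.0 and Cdh23 at 352 CPM.

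In the stereocilia list, 14 of 20 members were detected in a larger share of OHC-like cells and 4 in a smaller share. Of the 13 that entered the fit, 10 were above 0 with a median of 0.62, and 0 passed the test. Without series E, 8 of 12 were above 0 and the median was 0.27. Espn, which bundles the actin of the stereocilia, was in all 27 cells at 726 ± 242 and 526 ± 181 CPM, beside 703 CPM in WT_P30 OHCs. Myo3a, a motor that carries cargo to stereocilia tips, was detected in 5 of 11 and 5 of 16 cells. It reached 601 CPM in the highest OHC-like cell and 66.1 CPM in the highest nascent HC, the 5 OHC-like cells with it all being above every nascent HC, and its log2 difference was 2.78 (SE 0.96, edgeR p = 0.0329). Myo15, the motor that lengthens stereocilia, was detected in 4 of 11 OHC-like cells and in 1 of 16 nascent HCs, nascent HC 2, which at 299 CPM exceeded every OHC-like cell (highest 127). Gipc3, a bundle-associated adaptor, was at 92.3 ± 123 and 34.8 ± 39.5 CPM.

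The list of channels and pumps had 11 of 16 members detected in a larger share of OHC-like cells and 3 in a smaller share, against 46.4% and 48.0% of all genes. Lists can share members, as with Kcna10 in this list and the mature OHC list, so they are not separate results. Of the 11 members fitted, 8 were above 0 with a median of 1.16, and 0 passed the test. The median was 0.35 without series E, with 6 of 11 above 0, 0.55 without series D and 0.65 without series A.

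Atp2b2 (chr6:113743831-114042613, minus strand), the pump that clears calcium from stereocilia, was at 220 ± 113 CPM in the OHC-like cells (lowest 0.271, median 233, highest 405) and at 87.5 ± 90.9 CPM in the nascent HCs (0, 56.0 and 208). All 16 nascent HCs lay below the OHC-like median and 7 of 11 OHC-like cells lay above the highest nascent HC. It was detected in 10 of 11 OHC-like cells and 9 of 16 nascent HCs, and the OHC-like mean log2 level was higher in 4 of 4 series. The log2 difference was 1.67 (SE 0.54, edgeR p = 0.0205), and WT_P30 OHCs held 799 ± 224 CPM.

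Atp1b1 (chr1:164437109-164458355, minus strand), a beta subunit of the sodium-potassium pump, went the other way in level. It was at 60.4 ± 105 CPM in the OHC-like cells (lowest 1.08, median 25.2, highest 371) and at 250 ± 321 CPM in the nascent HCs (0, 112 and 948). The OHC-like mean log2 level was lower in 4 of 4 series and the log2 difference was -2.40 (SE 0.56, edgeR p = 0.00517). Atp1b2 (chr11:69599736-69605942, minus strand), another beta subunit of the same pump and not a list member, was among the 10 smallest p on the higher side. It was at 220 ± 96.8 CPM in the OHC-like cells (114, 215 and 444) and at 98.9 ± 90.7 CPM in the nascent HCs (0, 87.0 and 257), with a log2 difference of 1.20 (SE 0.32, edgeR p = 0.00906), higher in 4 of 4 series. The 2 beta subunits thus stood on opposite sides, and WT_P30 OHCs held Atp1b1 at 104 ± 107 and Atp1b2 at 252 ± 162 CPM. Atp1b1 overlaps Nme7 on the other strand, and whether the counting used strand is not given in the sources used here.

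Slc8a2, a sodium-calcium exchanger, was detected in 9 of 11 OHC-like cells and 6 of 16 nascent HCs, at 21.0 and 3.02 CPM. P2rx3, an ATP-gated channel, was in no OHC-like cell at 1 CPM and in 6 of 16 nascent HCs. For 0 of 11 cells the approximate upper limit, 3 divided by the number of cells, is 27.3%. The highest 4 were nascent HC 11 of series D at 1573 CPM and, all of series E, nascent HC 14 at 967, nascent HC 15 at 965 and nascent HC 16 at 863 CPM. The other nascent HCs were at or below 38.3 CPM, and whether P2rx3 follows the series or the type was not tested. It was too sparse for the fit, and no WT_P30 OHC had a count. Kcnma1, a potassium channel of mature hair cells at 124 CPM in WT_P30 OHCs, was below 1 CPM in all 27 cells.

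Early pan-hair cell genes, which hair cells of any kind switch on first, were present in most cells of both types. Of 16 members, 8 were detected in a larger and 4 in a smaller share of OHC-like cells. Of the 15 fitted, 10 were above 0 with a median of 0.24, and 0 passed the test. The sign of the median turned without series E, where 6 of 15 were above 0 and the median was -0.15, and it was 0.58 without series B and 0.47 without series D. Myo6, a motor of the stereocilia base, was at 1069 ± 552 and 1013 ± 577 CPM with a log2 difference of 0.14 (SE 0.27), and Pvalb, a calcium buffer, at 527 ± 632 and 682 ± 968 CPM with 0.12 (SE 0.73).

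Calb1 (chr4:15881264-15908064, plus strand), the calcium buffer calbindin, stood out on this list. It was detected in 9 of 11 OHC-like cells and 7 of 16 nascent HCs, at 1049 ± 1480 CPM (lowest 0, median 116, highest 4161) and 115 ± 236 CPM (0, 0.174 and 738). Of the OHC-like cells, 4 lay above every nascent HC, and the others spread over the nascent range. The log2 difference was 3.49 (SE 0.96, edgeR p = 0.0142). Calb2, the related buffer calretinin, was in all 11 OHC-like cells with the lowest at 500 CPM, and in 12 of 16 nascent HCs, at 2425 ± 1622 and 1999 ± 2301 CPM. Nrsn1, a vesicle membrane protein of neurons, was at 661 ± 447 and 355 ± 338 CPM with a log2 difference of 1.31 (SE 0.44, edgeR p = 0.0289), and Tmem255b, a membrane protein, at 473 ± 453 and 182 ± 208 CPM with 1.43 (SE 0.56, edgeR p = 0.0509). Dll1, a Notch ligand that early hair cells show to their neighbours, was detected in 4 of 11 OHC-like cells and 10 of 16 nascent HCs, at 13.1 and 70.6 CPM, and was at 0 in every WT_P30 OHC.

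Of the 17 transcription and splicing regulators of hair cells, 7 were detected in a larger and 6 in a smaller share of OHC-like cells. Of the 11 fitted, 7 were above 0 with a median of 0.26, and 0 passed the test. Without series A, 5 of 12 were above 0 and the median was -0.07, while it was 0.11 without series D and 0.43 without series E. Insm1, a transcription factor of young OHCs, was at 107 ± 86.9 and 86.4 ± 76.6 CPM, against 1.23 CPM in WT_P30 OHCs. Its relative Insm2 was at 57.7 ± 39.2 and 28.5 ± 31.2 CPM. Rbm24, a splicing regulator of hair cells, was detected in 8 of 11 and 7 of 16 cells, at 112 ± 211 and 65.3 ± 200 CPM against 502 in WT_P30 OHCs. Gfi1, a repressor that hair cells need to survive, was at 39.1 and 48.4 CPM. Pou4f3, the factor downstream of Atoh1 on which hair cell survival depends, was detected in 1 of 11 and 2 of 16 cells. OHC-like cell 11 held it at 736 CPM and nascent HC 2 at 584 CPM, while the lowest WT_P30 OHC held 141 CPM.

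Synapse genes had 11 of 16 members in a larger and 3 in a smaller share of OHC-like cells. Of the 10 fitted, 5 were above 0 with a median of 0.11, which was -0.16 without OHC-like cell 4, and 0 passed the test. Without series E, 2 of 10 were above 0 and the median was -0.93, while without series A 8 of 11 were above 0 and it was 0.64, and without series B it was 0.39. Snap25, of the vesicle fusion machinery, was at 155 ± 142 and 134 ± 139 CPM. Cabp2, a calcium sensor of hair cell calcium channels, was at 50.7 and 52.6 CPM against 1149 in WT_P30 OHCs. Otof, the calcium sensor of hair cell vesicle release, was at or above 1 CPM in 1 of the 27 cells, OHC-like cell 7 at 1.17 CPM, against 479 CPM in WT_P30 OHCs.

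Genes that mark hair cells of newborn mice were described by 3 lists taken from the study. Of the 53 neonatal OHC genes, 16 were detected in a larger and 24 in a smaller share of OHC-like cells, with 17 of 43 fitted members above 0 and a median of -0.20, which was -0.43 without series A. Of the 49 neonatal IHC genes, 23 and 22 went each way, with 8 of 20 above 0 and a median of -0.33. That median was -1.28 without series A, with 6 of 23 above 0, -0.20 without series D and -0.02 without series E, with 11 of 22 above 0. Of the 26 neonatal utricle hair cell genes, 12 and 8 went each way, with 7 of 13 above 0 and a median of 1.07. The sign of this median turned without series D, where 4 of 13 were above 0 and it was -0.65, and it was 0.49 without series A, 0.66 without series E and 1.97 without series B. None of these lists had a member that passed the test.

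Within the neonatal OHC list, Cryab, a small heat shock protein, was detected in 2 of 11 OHC-like cells and 8 of 16 nascent HCs. It was at 2325 CPM in OHC-like cell 1 and at most 27.9 CPM in the other OHC-like cells, and reached 11198 CPM among the nascent HCs. Smoc2, a secreted matrix protein, was detected in 2 of 11 and 5 of 16 cells at 7.27 and 67.7 CPM. Bmp7 and Bmp2, growth factors, were detected in 2 of 11 and 6 of 16 cells and in 2 of 11 and 1 of 16 cells. Bcl11b, a transcription factor, was in 1 nascent HC at 25.0 CPM and in no OHC-like cell. Anxa4, an annexin, was in all 27 cells at 1757 ± 1380 and 3008 ± 1676 CPM, lower in the OHC-like cells in 4 of 4 series, with a log2 difference of -0.98 (SE 0.52, edgeR p = 0.106). St8sia3, a sialyltransferase outside the lists, was detected in 10 of 11 OHC-like cells and 9 of 16 nascent HCs, at 52.4 ± 35.7 and 28.8 ± 34.8 CPM.

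**Figure D2:**
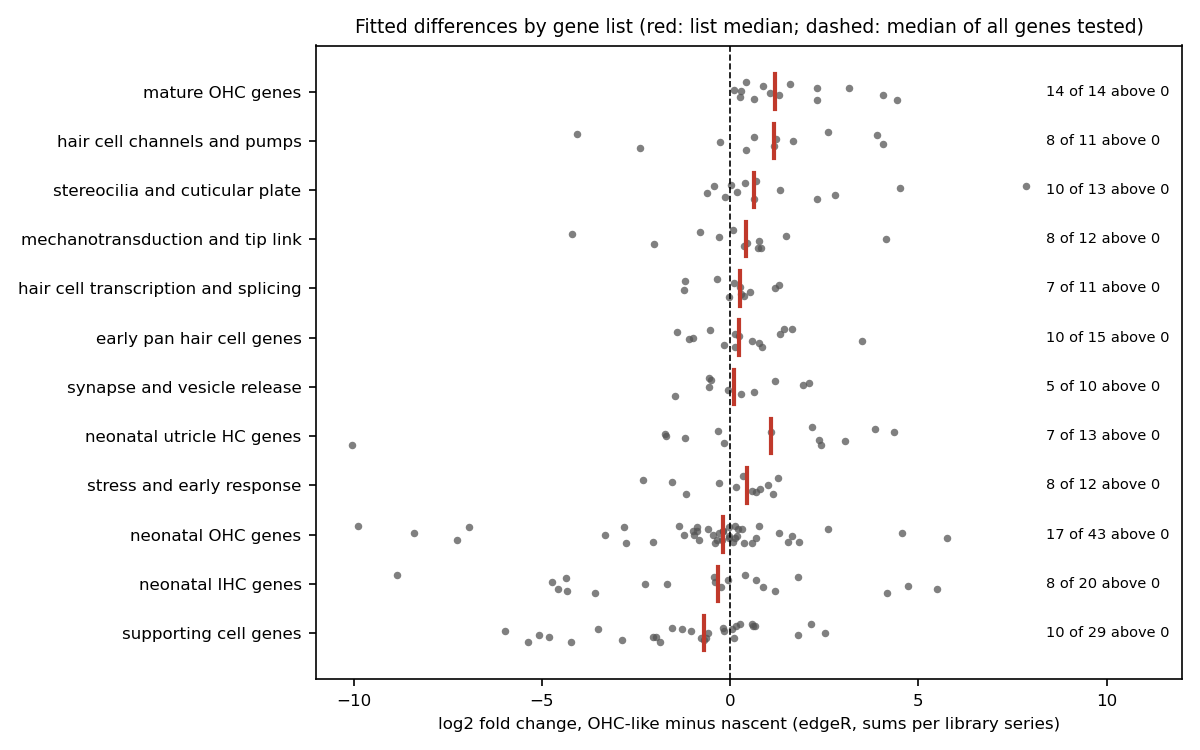
Fitted log2 difference, OHC-like minus nascent, of each gene that entered the edgeR fit, by gene list; the red bar is the list's median and the dashed line the median of all 11565 genes tested. All 14 fitted genes of the mature OHC list lie above 0 with a median of 1.18, and the supporting cell list has its median at -0.71.

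Genes of the SC of origin were on the whole detected in fewer OHC-like cells. Of 38 SC genes listed, 3 were detected in a larger and 28 in a smaller share of OHC-like cells, against 46.4% and 48.0% of all genes. These shares include OHC-like cell 4, which held 7 of the 38, the fewest of any cell of either type. Of the 29 members fitted, 10 were above 0, the median was -0.71, and 0 passed the test. Without OHC-like cell 4, in which few genes of any kind were detected, the median was -0.67, and without series E it was -0.37.

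Hey1 (chr3:8663359-8667256, minus strand), a repressor that Notch switches on in SCs, had the smallest p of all 11565 genes. It was detected in 3 of 11 OHC-like cells and 9 of 16 nascent HCs, at 5.98 ± 10.6 CPM (lowest 0, median 0.129, highest 30.2) and 152 ± 311 CPM (0, 29.3 and 1241). The highest OHC-like cell lay below 8 of 16 nascent HCs, the OHC-like mean log2 level was lower in 4 of 4 series, and the log2 difference was -5.07 (SE 0.74, edgeR p = 0.000447, adjusted p = 1). Its relatives had wider errors: Hey2 was at 3.98 and 19.1 CPM, and Hes1, also a Notch target, at 49.8 and 82.9 CPM. Heyl was at 334 ± 263 and 383 ± 401 CPM, a log2 difference of 0.05 (SE 0.62).

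Prox1, a transcription factor kept by pillar and Deiters' cells, had the second largest gap in detection on the smaller side. It was in all 16 nascent HCs and in 4 of 11 OHC-like cells (36.4%, exact binomial 95% interval 10.9 to 69.2%). Its level was 12.4 ± 17.6 CPM in the OHC-like cells (lowest 0, median 0.0614, highest 42.1) and 58.2 ± 53.1 CPM in the nascent HCs (3.46, 55.6 and 209). The highest OHC-like cell lay below 9 of 16 nascent HCs, but the nascent HCs with the least Prox1 lay below the 4 OHC-like cells that had it. The share was smaller in 3 series and larger in 0, the log2 difference was -1.98 (SE 0.95, edgeR p = 0.0814), and WT_P60 SCs held 34.6 CPM. Gm28172, a transcript that overlaps Prox1 on the other strand, was in 0 of 11 and 7 of 16 cells, and reads of the 2 cannot be told apart if strand was not used.

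Sox2 and Sox9, transcription factors of SCs, were detected in 4 of 11 and 10 of 16, and in 4 of 11 and 11 of 16 cells. S100b, a calcium-binding protein of SCs, was in 3 of 11 OHC-like cells, at 678 CPM in OHC-like cell 1 and at most 21.1 CPM in the others, and in 8 of 16 nascent HCs up to 1838 CPM. Slc1a3, a glutamate transporter of SCs, was in 2 of 11 and 5 of 16 cells at 50.6 and 118 CPM. Cnn3, an actin-binding protein of SCs, was at 162 ± 180 and 357 ± 323 CPM, with a log2 difference of -1.03 (SE 0.40, edgeR p = 0.0416).

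Other SC genes had close means in the 2 types. Fgfr3, the gene whose promoter drives the Cre, was in all 27 cells at 283 ± 133 and 302 ± 226 CPM, below the 766 CPM of WT_P60 SCs and above the 16.6 CPM of WT_P30 OHCs. Id2, an inhibitor of factors such as Atoh1, was at 2910 ± 1232 and 2947 ± 1873 CPM, a log2 difference of 0.10 (SE 0.26), and Id1 at 259 ± 178 and 342 ± 316 CPM with -0.17 (SE 0.36). Lgr5, a receptor of SCs with progenitor traits, was detected in 8 of 11 and 15 of 16 cells, at 125 and 105 CPM. Ceacam16, a protein of the tectorial membrane, was 1 of the 3 members in a larger share of OHC-like cells, 9 of 11 against 6 of 16, at 52.6 and 49.1 CPM, far below the 1861 CPM of WT_P60 SCs. Bace2, at 1222 CPM in WT_P60 SCs, was in 2 of 11 and 4 of 16 cells, and Gjb2, a gap junction gene at 706 CPM there, in 1 of 11 and 3 of 16.

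**Figure D3:**
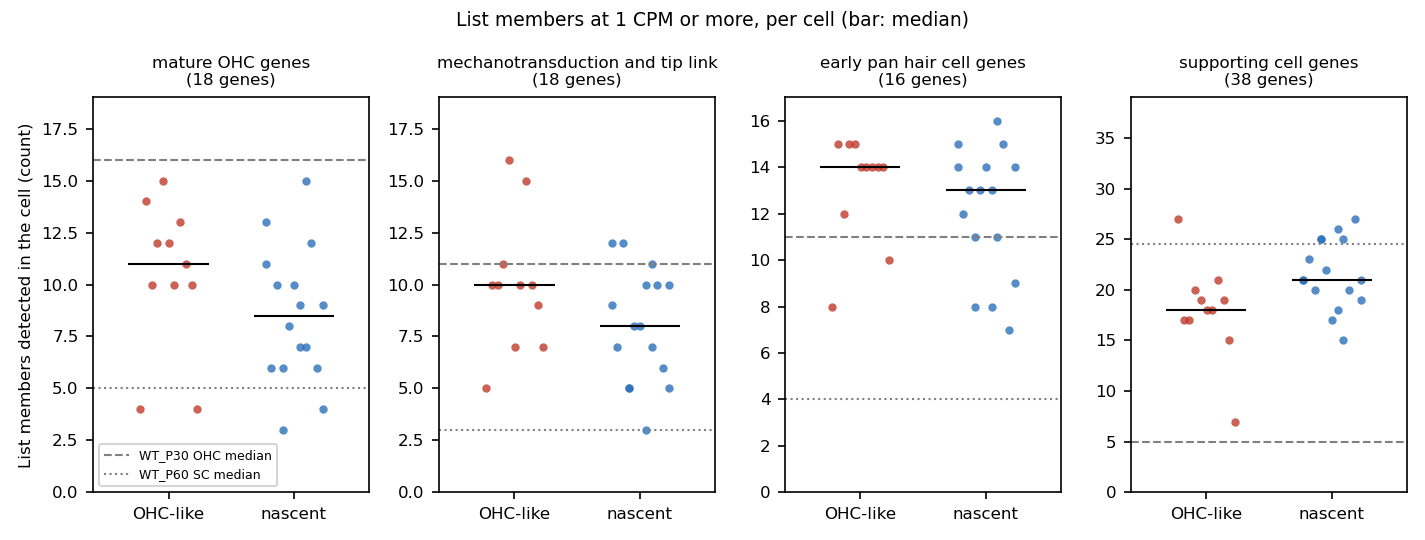
Number of list members at or above 1 CPM in each OHC-like cell and nascent HC, for lists of hair cell and SC genes; black bars are medians, and the dashed and dotted lines are the medians of WT_P30 OHCs and WT_P60 SCs. Of the 18 mature OHC genes the OHC-like cells held 4 to 15 (median 11.0) and the nascent HCs 3 to 15 (median 8.5), and of the 38 SC genes 7 to 27 (median 18.0) and 15 to 27 (median 21.0).

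Counted cell by cell, the types overlapped on every list. WT_P30 OHCs held a median of 16.0 of the 18 mature OHC genes and WT_P60 SCs 5.0, so the medians of 11.0 in the OHC-like cells and 8.5 in the nascent HCs both lay between the wild-type cells. The within-series difference in the mean number was 1.0 in series A, 0.30 in B, 2.50 in D and 5.00 in E. For the 18 mechanotransduction genes the medians were 10.0 and 8.0, against 11.0 in WT_P30 OHCs and 3.0 in WT_P60 SCs. For the 16 early pan-hair cell genes both types held more members, 14.0 and 13.0, than the WT_P30 OHCs at 11.0. For the SC genes the within-series difference was 2.0 in A, -4.07 in B, -5.33 in D and -2.25 in E, and the wild-type medians were 24.5 in SCs and 5.0 in OHCs.

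Cells at both ends of these counts were found in both types. OHC-like cell 11 held 15 of the 18 mature OHC genes and 16 of the 18 mechanotransduction genes, and it had the most Slc26a5, Tmc1 and Pou4f3 of its type. Nascent HC 2 also held 15 mature OHC genes and 18 of the 20 stereocilia genes, the most of any of the 27 cells, with Slc26a5 at 16.4 CPM. At the other end, OHC-like cell 1 held 4 mature OHC genes, 8 early pan-hair cell genes and 27 SC genes, and nascent HC 3 held 3, 8 and 25. OHC-like cell 1, with 30.7 CPM of Slc26a5, had no count of Lhfpl5, Calb1 or Ocm.

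Outside the lists, the smallest p values fell on genes of mixed function. Among the 10 on the higher side beside Aqp11 and Atp1b2 were Epb41l5, a membrane-skeleton protein, at 224 ± 144 and 105 ± 83.5 CPM (edgeR p = 0.00867), and Fars2, a mitochondrial tRNA synthetase, at 107 ± 61.2 and 36.0 ± 31.9 CPM (edgeR p = 0.00994). Trappc6b, of a vesicle-tethering complex, was at 147 ± 80.0 and 69.8 ± 44.4 CPM, and Apbb2, an adaptor of the amyloid precursor protein, at 75.0 ± 61.5 and 32.7 ± 39.4 CPM. All 4 were higher in the OHC-like cells in 4 of 4 series, and their log2 differences were 1.34, 1.73, 1.17 and 1.57. They were picked by p from a fit with a series term, which favours agreement between series. Gm29216, at 152 ± 162 and 41.4 ± 25.1 CPM, was higher in 4 of 4 series as well; it is annotated as a pseudogene, so its counts may be shared with a near-identical copy. The mitochondrial share of counts was also higher in the mean of the OHC-like cells, 7.33% against 4.83%. That mean includes OHC-like cell 4 at 23.8%, and the medians were 6.54% and 4.79%. The part of the mitochondrial share in these differences was not tested. The other members of the 10, Mup4, Acaa2 and Gm50322, were each detected in 3 or 4 OHC-like cells and in 0 to 2 nascent HCs.

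On the lower side, Neat1, a nuclear long noncoding RNA, was at 16.8 ± 26.2 and 191 ± 410 CPM with a log2 difference of -2.52 (SE 0.38, edgeR p = 0.000507), though it was lower in only 3 of 4 series by mean log2 level. H2-D1, a class I MHC antigen, was at 272 ± 378 CPM in the OHC-like cells (lowest 0.157, median 145, highest 1346) and 909 ± 1611 CPM in the nascent HCs (19.9, 473 and 6633), lower in 4 of 4 series, with -1.67 (SE 0.31, edgeR p = 0.00152). Rap1b, a small GTPase, was at 100.01 ± 73.1 and 264 ± 145 CPM with -1.25 (SE 0.29, edgeR p = 0.00467), and Misp, an actin-bundling protein, at 33.5 ± 30.9 and 190 ± 216 CPM with -2.30 (SE 0.54, edgeR p = 0.00509). Rhbdl3, a rhomboid protease relative, was in 0 of 11 OHC-like cells and 8 of 16 nascent HCs, Ccdc60, a utricle list member, in 0 of 11 and 7 of 16, Palm, a membrane-shaping protein, in 1 of 11 and 8 of 16, and Zmat4, a zinc finger protein, in 1 of 11 and 5 of 16.

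The share of cells with a gene is a second readout that depends less on a few cells with high levels. Of 19151 genes, 15 were detected in a share of OHC-like cells larger by 50 percentage points or more (0.0783%) and 27 in a share smaller by as much (0.141%), while 16811 (87.8%) differed by less than 20 points and 1085 were in every cell of both types. The first count was 39 without OHC-like cell 4 and 34 to 257 when 1 library series was left out, the highest without series B. The second was 55 to 106 when 1 series was left out, also highest without series B. The 27 genes depend on OHC-like cell 4 as well. Without that cell the gaps of Bmp6 and Ebf2 fell to -48.75 points and that of Limch1 to -47.5. Those of Gm15751 and Lmbr1l grew to -71.25 and -57.5. Genes with no nascent HC above 1 CPM reached at most 6 of 11 OHC-like cells, and genes with no OHC-like cell above 1 CPM at most 9 of 16 nascent HCs. Shares were not tested, since cells share their source.

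Gm10865, which overlaps Triobp on the other strand, had the largest gap towards OHC-like cells. It was in 11 of 11 OHC-like cells (100%, interval 71.5 to 100%) and 6 of 16 nascent HCs (37.5%, 15.2 to 64.6%), at 15.1 ± 9.90 and 4.36 ± 6.76 CPM. Triobp builds the rootlets of the stereocilia, and without strand the reads of the 2 genes cannot be told apart. Nudt19, a coenzyme A hydrolase of peroxisomes, was in 8 of 11 and 2 of 16 cells, Rubcn, a regulator of autophagy, in 9 of 11 and 4 of 16, and Aifm3, of mitochondria, in 8 of 11 and 3 of 16. Chadl, a matrix protein, was in 6 of 11 OHC-like cells and 0 of 16 nascent HCs. Gtf2h1, a general transcription factor subunit, Znfx1, an RNA helicase, and Ttc24 were each in 10 of 11 and 6 of 16 cells.

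Ccnk, a cyclin of transcription elongation, had the largest gap the other way, in 1 of 11 OHC-like cells and 12 of 16 nascent HCs at low level (2.02 and 5.99 CPM), and at 10 CPM its shares differed by only -3.41 points. Klf7, a transcription factor, was in 3 of 11 and 14 of 16 cells at 9.60 ± 22.8 and 58.7 ± 51.7 CPM, and its gap was larger at 10 CPM, -63.1 points against -60.2. Its log2 difference was -3.61 (SE 1.06, edgeR p = 0.0139). Atp13a3, a polyamine transporter, was in 3 of 11 and 14 of 16 cells, Prune1, a phosphatase, in 4 of 11 and 15 of 16, Ids, a lysosomal sulfatase, in 1 of 11 and 11 of 16, and Rhot2, which tethers mitochondria to motors, in 2 of 11 and 12 of 16. Kif1c, a kinesin motor, was in 0 of 11 OHC-like cells and 9 of 16 nascent HCs, at 21.0 ± 32.1 CPM in the latter.

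**Figure D4:**
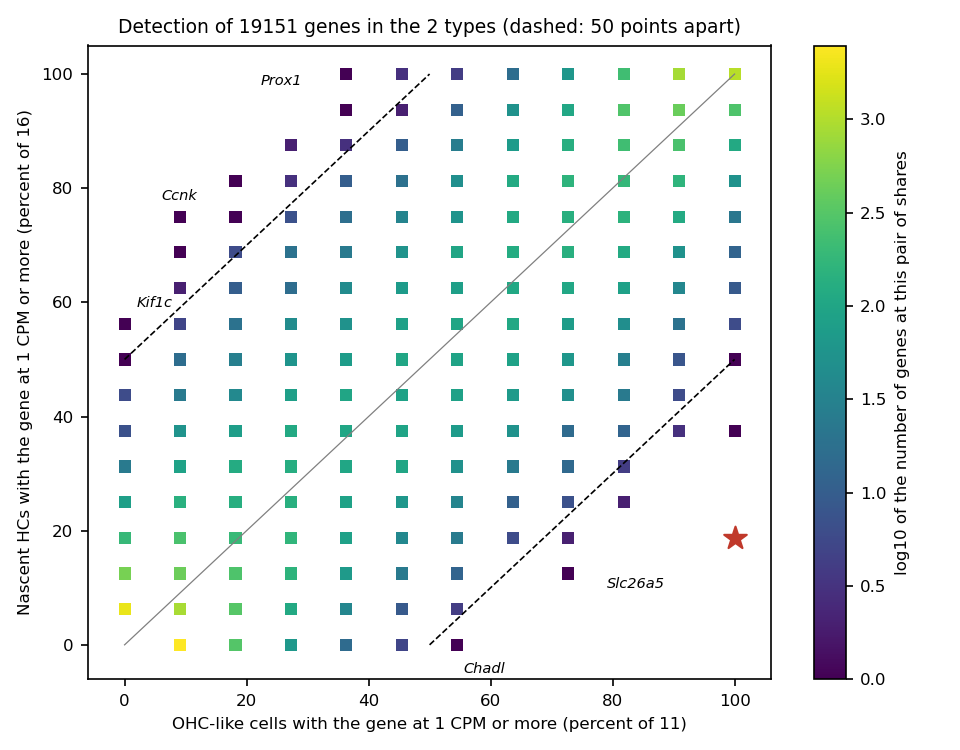
Share of OHC-like cells (x axis, percent of 11) against share of nascent HCs (y axis, percent of 16) with a gene at or above 1 CPM, for 19151 genes; colour gives the log10 number of genes at each pair of shares the dashed lines mark 50 percentage points, and the star is Slc26a5, which is not counted. Most genes lie near the diagonal, with 15 beyond the lower line and 27 beyond the upper line.

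Markers of other cells were counted beside these results. Of 5 blood genes, all 5 were detected in OHC-like cell 2, with a summed level of 2575 CPM including Hba-a1 at 1099 CPM, while the median cell of each type held 0 and no nascent HC exceeded 8.67 CPM. None of 7 macrophage genes reached 1 CPM in any of the 27 cells. Summed endothelial genes reached 23.7 and 22.0 CPM at most, and fibroblast genes 42.0 and 54.9 CPM. The 8 neuron and glia genes summed to medians of 256 and 236 CPM, of which Snap25 is also a hair cell gene, Nefl was below 1 CPM in every cell, and Tubb3 was in 2 of 11 and 5 of 16 cells at 1.61 and 78.9 CPM. Mbp was at 67.3 and 35.0 CPM. The 4 IHC markers summed to at most 16.4 and 78.2 CPM, and Slc17a8, the glutamate transporter of IHC synapses, reached 1 CPM in 0 of 11 and 1 of 16 cells. The same 4 genes, which include Otof, summed to a median of 444 CPM in WT_P30 OHCs, so a low sum does not set OHCs apart. Of 12 stress and early response genes, 1 was in a larger and 8 in a smaller share of OHC-like cells, while 8 of the 12 had a fitted log2 difference above 0 with a median of 0.45. Without series A, 3 of 12 were above 0 and the median was -0.43, and the median was 0.88 without series D and 0.25 without series E. The summed stress medians were 2818 and 2701 CPM, and Fos was at 227 ± 264 and 529 ± 948 CPM with a log2 difference of -1.17 (SE 0.69, edgeR p = 0.139). The part of such RNA in the gene differences was not tested.

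To place whole profiles, each cell was placed in log2(CPM + 1) on a straight line with the average WT_P60 SC at 0 and the average WT_P30 OHC at 1, a wild-type cell's own values being left out of its average. OHC-like cells were at 0.404 ± 0.161 (lowest 0.128, median 0.377, highest 0.790) and nascent HCs at 0.340 ± 0.0805 (0.190, 0.365 and 0.512). The medians nearly coincided, and every cell of both types lay below the lowest WT_P30 OHC at 0.868. The highest position was that of OHC-like cell 4, in which few genes were detected, and the difference of means was 0.0634 with that cell, 0.0247 without it and 0.0273 without series B. Nascent HC 2, the highest of its type at 0.512, lay above the OHC-like median. Within series the difference was -0.0932 in A, 0.103 in B, 0.0428 in D and 0.0787 in E. Failing SCs were at 0.264 ± 0.138 (lowest 0.121, median 0.238, highest 0.498) and overlapped both types, so a place in the middle was not particular to them. The highest failing SC had 4262 genes detected. No p is given for this score, and the wild-type cells differ from the induced cells in age (OHCs) and genotype.

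**Figure D5:**
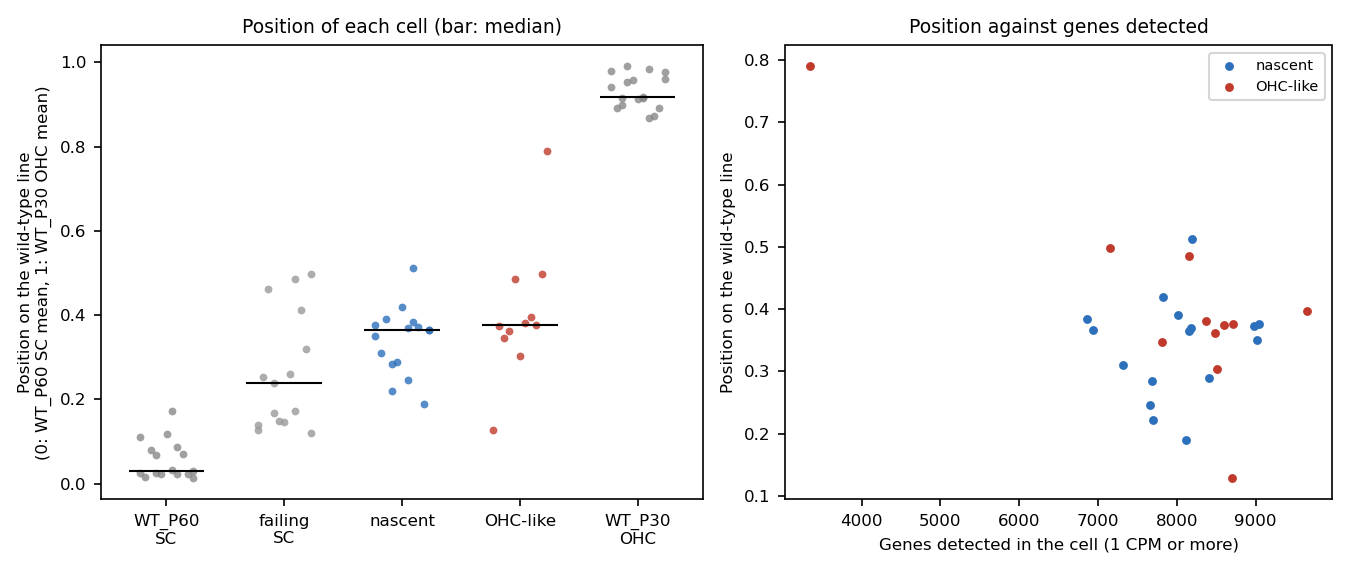
Left, position of each cell, by group, on a line with the WT_P60 SC average at 0 and the WT_P30 OHC average at 1, with the median as a bar; right, position against the number of genes detected at 1 CPM. OHC-like cells (median 0.377) and nascent HCs (median 0.365) share the middle of the line, and the 1 OHC-like cell at 0.790 is the cell with 3348 genes detected. Failing SCs (median 0.238) reach 0.498 and overlap both types.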

How the data were processed

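Single cells were sequenced as paired-end full-length cDNA libraries. The authors trimmed the reads (Trimmomatic 0.39), aligned them to mm10 (GRCm38) with HISAT2 2.1.0 and counted them per gene with HTSeq 0.10.0, and deposited raw counts. StringTie 1.3.5 and FastQC 0.11.9 are also named in their processing notes. The annotation release and the use of strand in counting are not given in the sources used here. The deposited counts were used unchanged, without WPRE. CPM is the count per 1000000 counts on genes, unscaled, and positions come from GENCODE M21. Counts were summed per library series and type and fitted with edgeR 4.0.16 in R 4.3.3 (TMM, filterByExpr with a minimum count of 10, series term, quasi-likelihood F-test, Benjamini-Hochberg over all genes tested, adjusted p under 0.05), since the labels tie no cell to an animal. Alternatives used DESeq2 1.42.0 and limma 3.58.1. Detection means 1 CPM or more, with Clopper-Pearson 95% intervals over cells taken as independent. The upper limits given for genes found in no cell of a type are 3 divided by the number of cells, an approximation. The scripts were tested on simulated data. Named genes were up to 4 members of each list with the largest fitted difference and a mean of 10 CPM or more in either type, the 10 smallest p and the 10 largest detection gaps in each direction, and genes that the study names; further list members were named after their values were seen. The members, lists and rules were chosen with earlier results of these data known. No 2 cells were duplicates: the highest correlation between 2 of the 27 cells in log2(CPM + 1) was 0.850.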

Additional observations from a re-analysis of the deposited data

How the results depend on the processing

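The counts of called genes stayed at 0 in both directions with DESeq2 size factors, no filter on low counts, limma, no series term, cells as units with a series term, and without OHC-like cell 4. Other settings made calls. DESeq2 on the sums called 56 genes higher and 139 lower. Taking each cell as a unit with all 5 groups in the fit, edgeR called 80 higher and 24 lower, of which 86 of 104 were detected in 3 or fewer of the 27 cells. DESeq2 on cells called 2 higher (Ocm and Gm29216) and 1 lower (Gm8399). The 104 genes of edgeR on cells and the 195 of DESeq2 on sums shared 3 genes, 2.88% of the one and 1.54% of the other. Leaving out each library series in turn gave 0 to 0 genes higher and 0 to 1 lower, the 1 being Matn1 without series A, a setting in which the median of all genes moved to -0.11 on the log2 scale. Cells with the same number in both types share only a number: their deviations correlated at -0.146 to 0.0568, 0 of 11 pairs over 0.1 and 1 of 11 cells correlating best with its own number. A fit with the replicate block called 0 genes, with 90 under an unadjusted p of 0.05 against 81 in the same cells without the block.

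The number of genes in a larger share of OHC-like cells was 15 in the report, 23 when any count was taken as detection and 39 without OHC-like cell 4, and the means of within-series differences gave 78 larger and 59 smaller. Leaving out each series gave 34 to 257 larger and 55 to 106 smaller, so these counts depend on which series are in. The difference in genes detected per cell ranged from -34.1 to 529 when each series was left out, the negative value being that without series A, and was 486 without OHC-like cell 4 and 15.2 at 10 CPM. The difference in position was 0.0247 without OHC-like cell 4 and 0.0273 to 0.0830 when each series was left out. Of 96 named genes in the fit, 78 kept 1 direction under every alternative, and of 1225 values 39 had the opposite direction, none of them called. Many of the 96 were named for a small p or a large difference in these cells, which favours a kept direction. Medians of several gene lists turned sign on leaving out 1 series, as given beside each list. The cause of these changes was not tested. The fit of the same cells without the block and the list counts without OHC-like cell 4 or a series were chosen after seeing the data. The median standard error of 1.37 on the log2 scale limits the test to large differences.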
